A study of Mus musculus with 9 samples.

Results

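The proteasome genes described here are the subunits of the 20S core, the immunoproteasome, the 19S regulator and the 20S activators, together with the transcription factor Nfe2l1. They were taken by symbol from a fixed list, and all 39 were found among the 15343 genes measured. By role they comprise 7 subunits of the 20S alpha ring, 3 constitutive and 3 immune catalytic beta subunits, 4 other beta subunits, 6 ATPases and 11 non-ATPases of the 19S regulator, 4 activators and Nfe2l1. RNA-seq libraries were made from intraperitoneal macrophages of mice whose titles read WT. Every group was stimulated with LPS (lipopolysaccharide, a bacterial cell wall molecule recognised through TLR4) for 6 h at 100 ng/ml. The LPS group has no pretreatment in its labels, the DHA group had the omega-3 fatty acid DHA at 100 µM for 1 h beforehand, and the cpdA group had cpdA, labelled an agonist of the fatty acid receptor Gpr120, at 10 µM for 1 h beforehand. Each group had 3 libraries. Unstimulated cells were not analysed here, so nothing below measures induction by LPS itself. The labels do not say whether libraries of a group came from separate animals or cultures, so p-values measure only the spread between these libraries.

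The proteasome degrades proteins tagged with ubiquitin. Its 20S core is a barrel of alpha rings, which gate entry, and beta rings, which hold the catalytic sites. The 19S regulator caps the barrel, where its ATPases unfold substrates and its non-ATPase lid removes ubiquitin. In cells exposed to interferon, and in many immune cells, the catalytic subunits Psmb5, Psmb6 and Psmb7 are replaced in newly made cores by Psmb8, Psmb9 and Psmb10. These form the immunoproteasome, which favours peptides suited to MHC class I. The activator PA28, made of Psme1 and Psme2, is likewise raised by interferon. Nfe2l1 (NRF1) is the factor that drives the constitutive genes when proteasome activity falls short.

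Because interferon acts through elements in promoters, 2 cores linked to it were searched for in RefSeq promoter windows (build GRCm38.p6, 250 bases before to 50 after a start, both strands), which matched 33 of the 39 members. The core of the interferon-stimulated response element (GAAA, any 2 bases, GAAA) was present in 3 of those 33 (9.09%) and in 3.99% of 27025 genes. The STAT core TTCNNNGAA was present in 2 of 33 (6.06%), against 9.55% of all genes. The 5 matches follow with 10 bases on each side, in the direction of the gene, because they are the only ones among the members. The match is in capitals, and the first core reads TTTC, any 2 bases, TTTC where it lies on the other strand.
Psme1, chr14:55578493-55578522, plus strand, first base of the match at 10 from the start: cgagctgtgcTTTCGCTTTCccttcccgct
Psmb3, chr11:97703261-97703290, plus strand, first base of the match at -163: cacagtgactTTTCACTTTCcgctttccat
Psmd4, chr3:95042675-95042704, minus strand, first base of the match at -80: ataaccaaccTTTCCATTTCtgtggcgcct
Psmb8, chr17:34198088-34198116, plus strand, first base of the match at -97: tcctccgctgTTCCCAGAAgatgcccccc
Psmd2, chr16:20651646-20651674, plus strand, first base of the match at 5: gcgcgtggccTTCTGGGAAaaggggcggt
Of the 5 interferon-inducible members (Psmb8, Psmb9, Psmb10, Psme1 and Psme2), Psme1 held the first core and Psmb8 the second. The windows of Psmb9, Psmb10 and Psme2 held neither, which says only that these letters are not in these windows. The letters TGANNNNGC are a loose pattern for the antioxidant response element, which factors of the Nfe2l1 family can bind. They were present in 19 of 33 members (57.6%) and in 45% of all genes. CCAAT was present in 13 of 33 (39.4%) and in 41.1%. A match is a description of letters, not a binding site. Psmb9 lies head to head with Tap1, the peptide transporter gene, with 225 bases between their RefSeq starts.

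Of the 15343 genes, 13895 reached a normalized read count of at least 10 in at least 3 libraries and were tested, all 39 members among them. The reads recovered from the normalized counts ranged from 13797079 (DHA 1) to 37572822 (cpdA 2) per library, and no member had fewer than 732 reads in any library. Of the libraries, cpdA 3 and LPS 3 stood apart from the rest of their groups, as the summed normalized counts of fixed marker lists show. The 9 macrophage markers, led by Lyz2, summed to 323033 in LPS 3 and 385815 in cpdA 3, against 560899 to 586530.1 in the other 7 libraries. That gap was mostly in Lyz2, at 210386 in LPS 3 and 269049 in cpdA 3 against 447053 to 459826 elsewhere. Other macrophage markers went both ways, Csf1r being highest in cpdA 3 (21816) and Cd14 lowest there (12490). The 4 nuclear transcripts chosen to reflect RNA quality, led by Neat1, summed to 53772 in cpdA 3 against 12257 to 23354 elsewhere. That rise was mainly Neat1, at 46514 in cpdA 3 against 7382 to 15888 elsewhere. Malat1 and Meg3 were highest there by less, and Kcnq1ot1 (2744) lay within the range of the others. The sum did not set LPS 3 (23354) apart from DHA 2 (21732). The main results that rest on cpdA 3 or LPS 3 are given with and without them.

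All 3 immune catalytic subunits and Psme1 had lower normalized read counts in every pretreated library than in every LPS library. With Psma3 and Psma4 of the alpha ring this held for 6 of the 39 members, against 9.28% of all genes, and no member was higher in every pretreated library, against 7.07%. In the test over all 9 libraries no member passed in any comparison, and 0.0072% of all genes did with DHA. The constitutive catalytic subunits and the 19S regulator lay near their LPS levels, with 17 changes of the 19S genes between -0.14 and 0.25 (log2) with DHA. In the test without cpdA 3 and LPS 3, Psmb8, Psmb9, Psmb10 and Psme1 fell with DHA, 4 of 39 members against 6.79% of all genes, and no member passed with cpdA, against 1.6%. These calls depended on single libraries: with DHA 3 also left out, 0 members were called with DHA, against 2.36% of genes. The plot of all members by library shows this arrangement.

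**Figure D1:**
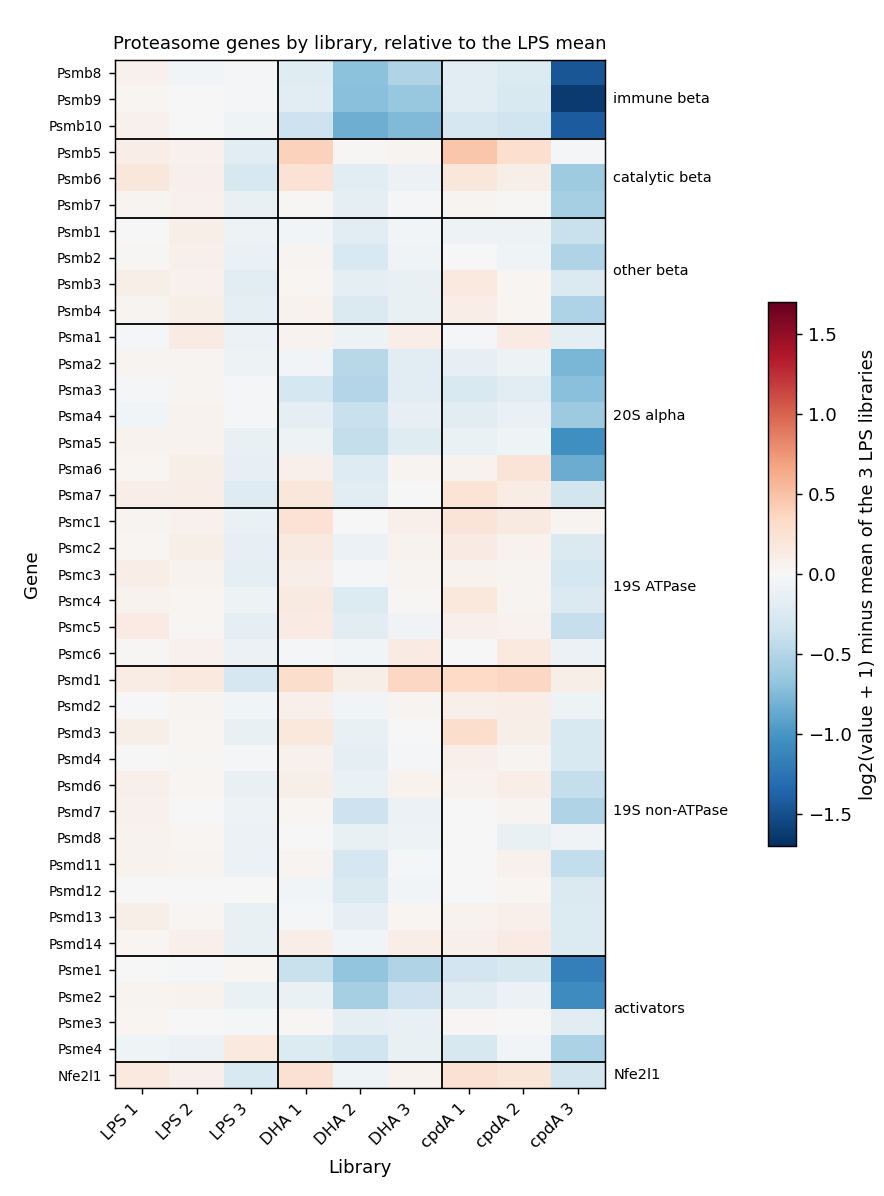
Colour gives log2(normalized read count + 1) minus the mean of the 3 LPS libraries for each of the 39 genes (rows, grouped by role) in each library (columns). Blue marks values below the LPS mean. It is deepest for Psmb8, Psmb9, Psmb10, Psme1 and Psme2 in cpdA 3, where Psma5 (-1.05) was almost equal to Psme2 (-1.06). The median of all 39 genes in cpdA 3 was -0.38. For the 5 interferon-inducible genes, blue is weaker in DHA 1, cpdA 1 and cpdA 2 than in DHA 2 and DHA 3.

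Psmb8 (Entrez 16913, the immune counterpart of Psmb5) had normalized read counts of 11836, 10921 and 11157 for LPS replicates 1 to 3, then 9835, 6975 and 7944 for DHA and 10013.5, 9625 and 4139 for cpdA, each in the order of replicate number kept throughout. Each pretreated library was below each LPS library, with DHA 1, cpdA 1 and cpdA 2 close under them and cpdA 3 far below. The group values were 11305 ± 475 with LPS, 8251 ± 1455 with DHA and 7926 ± 3285 with cpdA (SD, n = 3). The log2 change was -0.47 with DHA (SE 0.31; limma, Benjamini-Hochberg adjusted p = 0.503) and -0.62 with cpdA (SE 0.31; limma adjusted p = 0.386).

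Psmb9 (Entrez 16912), which takes the place of Psmb6, stood at 4179, 4116 and 4011 in the LPS libraries, at 3629, 2501 and 2629.7 in the DHA libraries and at 3603, 3436 and 1329 in the cpdA libraries. Its LPS libraries lay within a narrow band, 4102 ± 84.9 (SD, n = 3), above all 6 others. The mean was 2919.9 ± 618 with DHA and 2789 ± 1267 with cpdA (SD, n = 3). Its log2 change was -0.51 with DHA (SE 0.34; limma adjusted p = 0.510) and -0.69 with cpdA (SE 0.34; limma adjusted p = 0.385). The cpdA change was -0.24 without cpdA 3 and LPS 3 (limma adjusted p = 0.627), and none of these passed. Exons of Psmb9 and Tap1 overlap on opposite strands in the GRCm38 annotation, and whether counting used strand is not stated in these sources, so reads of the overlap cannot be assigned to one of them.

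Psmb10 (Entrez 19171), the immune counterpart of Psmb7, measured 10863, 10307 and 9849 with LPS, 8072, 5834 and 6165 with DHA, and 8500.5, 8153.5 and 3882 with cpdA. The gap between groups was wider than for Psmb8: the highest pretreated library, cpdA 1, was well under the lowest LPS library. The group values were 10339.8 ± 508, 6690.5 ± 1208 and 6845 ± 2572 (SD, n = 3). The log2 change was -0.64 with DHA, the most negative of any member there (SE 0.28; limma adjusted p = 0.347), and -0.68 with cpdA (SE 0.28; limma adjusted p = 0.314).

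Among the activators, Psme1 (Entrez 19186), the PA28 alpha subunit, had 9477.5, 9243 and 9738 with LPS, 7269, 5954 and 6656 with DHA, and 7601, 7837 and 4230.3 with cpdA. Again no pretreated library reached the LPS range, and LPS 3 was the highest library of all. Its log2 change was -0.52 with DHA (SE 0.22; limma adjusted p = 0.334) and -0.59 with cpdA (SE 0.22; limma adjusted p = 0.282), the smallest adjusted p of any member in each comparison. Psme2 (Entrez 19188), the PA28 beta subunit, had 22584, 22752 and 20212.5 with LPS, 20259, 14746 and 17154 with DHA, and 19190.1, 20359.9 and 10429 with cpdA. Its groups overlapped, since LPS 3 was below DHA 1 and cpdA 2. The log2 change of Psme2 was -0.34 with DHA (SE 0.25; limma adjusted p = 0.543) and -0.45 with cpdA (SE 0.25; limma adjusted p = 0.427), and its level is uncertain, because the mouse genome holds a near-identical copy of Psme2 and whether reads were split between them was not measured.

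The 2 other activators differed less. Psme3 (Entrez 19192), the nuclear PA28 gamma, had 2962, 2911 and 2849.6 with LPS, 2938, 2582 and 2659 with DHA, and 2941, 2927 and 2537 with cpdA, with log2 changes of -0.09 and -0.06 (SE 0.09 each; limma adjusted p = 0.668 and 0.822). Its groups overlapped throughout. Psme4 (Entrez 103554), the PA200 activator, had 4804, 4736 and 5694 with LPS, 4309, 4002 and 4617 with DHA, and 4194, 4888.5 and 3486 with cpdA. The DHA libraries were all below the LPS libraries, while cpdA 2 lay above LPS 1 and LPS 2. The log2 changes of Psme4 were -0.23 and -0.29 (SE 0.14 each; limma adjusted p = 0.464 and 0.382), and LPS 3 was its highest library.

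**Figure D2:**
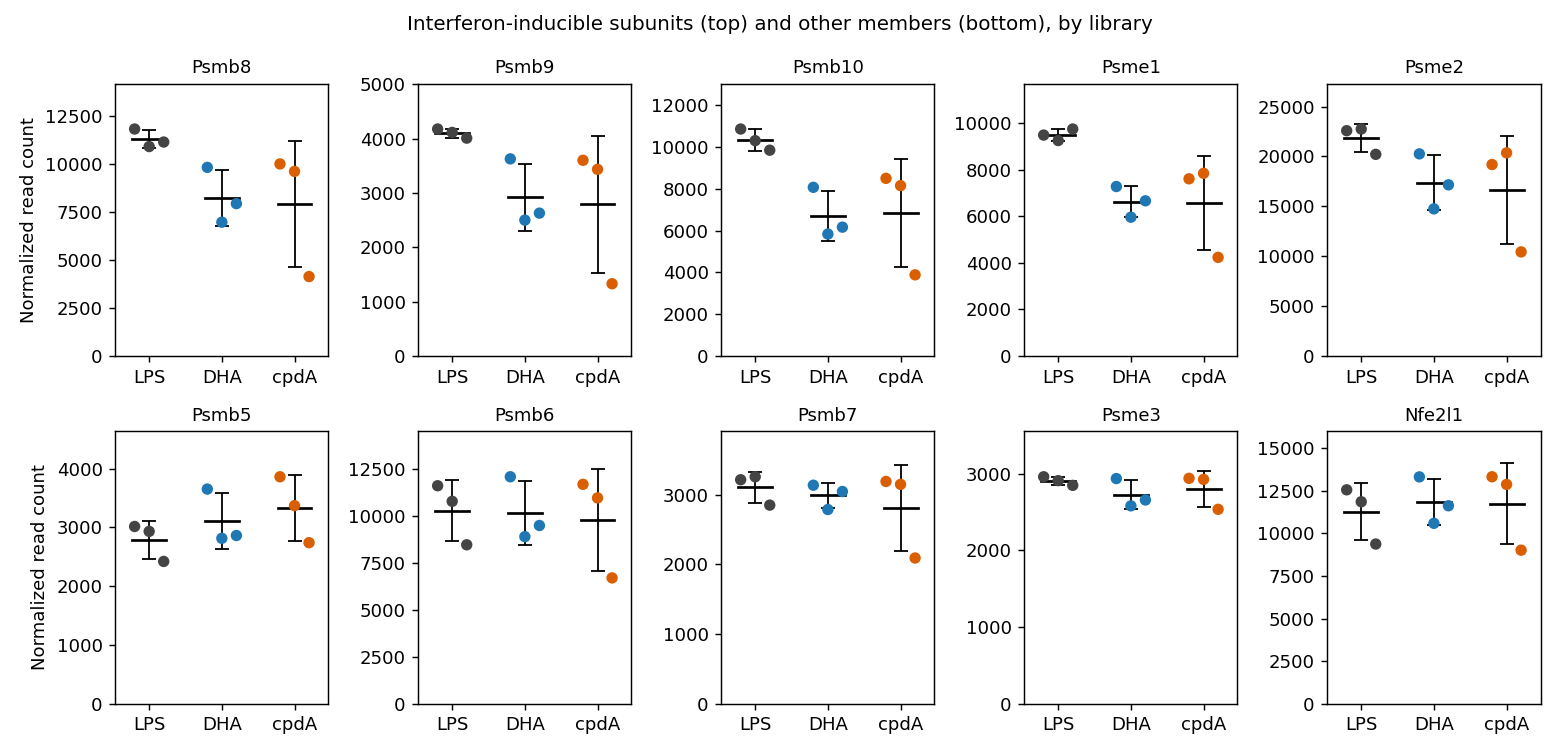
Normalized read count (y axis, from 0) of 10 members by group (x axis), 1 point per library, with the mean (bar) and SD (whiskers, n = 3). In the top row the pretreated points of Psmb8, Psmb9, Psmb10 and Psme1 lie below all LPS points and those of Psme2 partly overlap them, and in the bottom row the groups of Psmb5, Psmb6, Psmb7, Psme3 and Nfe2l1 overlap.

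The constitutive catalytic subunits showed no such separation. Psmb5 (Entrez 19173), which carries the chymotrypsin-like site, had 3015, 2932 and 2419.9 with LPS, 3651, 2813 and 2861 with DHA, and 3861, 3369.9 and 2739 with cpdA. Its pretreated means were above the LPS mean, with log2 changes of 0.15 and 0.25 (SE 0.16 each; limma adjusted p = 0.682 and 0.497), and the groups overlapped. Psmb6 (Entrez 19175), the caspase-like subunit, had 11585, 10756 and 8446 with LPS, 12062, 8879 and 9472 with DHA, and 11659, 10938 and 6685 with cpdA. The lowest Psmb6 values of their groups were in LPS 3, DHA 2 and cpdA 3, and its log2 changes were -0.02 and -0.10 (SE 0.23 each; limma adjusted p = 0.980 and 0.878). Psmb7 (Entrez 19177), the trypsin-like subunit, had 3215, 3258 and 2851 with LPS, 3136.5, 2787 and 3046 with DHA, and 3190.1, 3149 and 2092 with cpdA, with log2 changes of -0.055 and -0.17 (SE 0.16 each; limma adjusted p = 0.902 and 0.658). Under quantile normalization the sign of the DHA change of Psmb6 and Psmb7, and of the cpdA change of Psmb6, turned positive (0.14, 0.0030 and 0.096), so no direction is given for them.

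Levels of different genes were compared as LPS means per kilobase of transcript. Psme2, with the doubt given above, was the highest of these at 22713, followed by Psmb6 at 12859.9, Psme1 at 8531, Psmb10 at 7887 and Psmb8 at 6944. Psmb5 at 3102, Psmb9 at 3034 and Psmb7 at 2679 formed a lower tier, and within it the LPS libraries of Psmb5 overlapped those of Psmb9 and Psmb7. In LPS-stimulated macrophages 2 of the 3 immune subunits were therefore above their constitutive partners per kilobase, and Psmb9 was below Psmb6.

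Since a ratio within a library does not depend on that library's size factor, the mean log2 count of Psmb8, Psmb9 and Psmb10 was set against that of Psmb5, Psmb6 and Psmb7 (without length, so only differences between libraries can be read). This immune over constitutive log2 ratio was 0.753, 0.724 and 0.973 with LPS, 0.353, 0.183 and 0.214 with DHA, and 0.365, 0.405 and -0.281 with cpdA. All 6 pretreated libraries lay below all 3 LPS libraries. The mean difference from LPS was -0.57 with DHA and -0.65 with cpdA, that is 0.675 and 0.636 of the LPS ratio. The cpdA difference was -0.35 without cpdA 3 and LPS 3 (exact permutation p = 0.333, the smallest that 2 against 2 can give). Each had an exact two-sided permutation p of 0.1 (n = 3 against 3), the smallest that design can give, or 0.15 adjusted over the 3 comparisons, so neither could pass 0.05. Between cpdA and DHA the difference was -0.09 (exact permutation p = 1.0, n = 3 against 3), with cpdA 3 alone lower than the DHA libraries.

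The separation held for each pair of partners taken singly. The log2 ratio of Psmb8 over Psmb5 had a group mean of 2.02 ± 0.16 with LPS, 1.40 ± 0.09 with DHA and 1.16 ± 0.50 with cpdA (SD, n = 3). That of Psmb9 over Psmb6 was -1.31 ± 0.21, -1.80 ± 0.06 and -1.90 ± 0.37, and that of Psmb10 over Psmb7 was 1.74 ± 0.07, 1.15 ± 0.19 and 1.23 ± 0.29. None of the pretreated groups overlapped LPS in these 3 ratios. Full separation was not particular to them. The mean log2 ratio of the 19S genes over the alpha ring was -0.417, -0.486 and -0.467 with LPS. It was higher in every pretreated library, from -0.373 (cpdA 2) to -0.048 (cpdA 3). The mean of Psme1 and Psme2 over Psme3 was the steadiest among LPS libraries, at 2.30, 2.32 and 2.30, against 2.05, 1.86 and 2.01 with DHA and 2.04, 2.11 and 1.39 with cpdA. Leaving out cpdA 3 and LPS 3 turned the cpdA minus DHA difference in the immune over constitutive ratio to 0.14, so it has no settled sign.

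**Figure D3:**
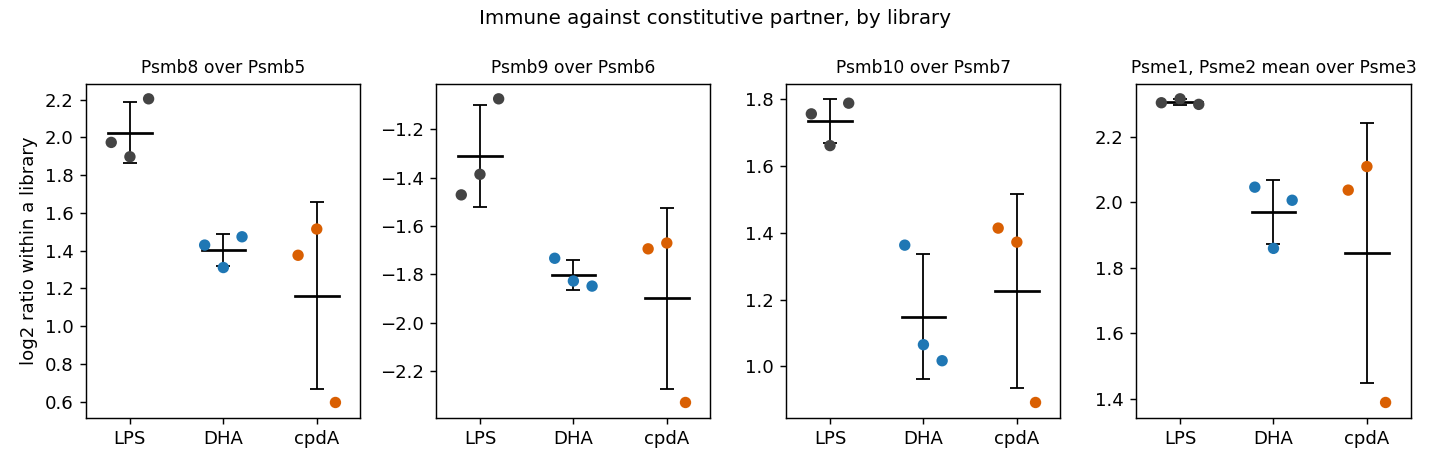
Log2 ratio of normalized read counts within each library (y axis, each panel on its own scale) by group (x axis), 1 point per library, with the mean (bar) and SD (whiskers, n = 3), for the 3 catalytic pairs and for Psme1 and Psme2 over Psme3. In each panel the DHA and cpdA points lie below all 3 LPS points, and cpdA 3 is the lowest of all.

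In the rest of the 20S core most alpha ring changes were negative too. Of the 7 members of the ring, 6 had a negative change with DHA (median -0.22) and 6 with cpdA (median -0.31), and none passed. By library, the median of the 7 against the LPS mean was -0.12 in cpdA 1, -0.07 in cpdA 2 and -0.71 in cpdA 3. Psma3 (Entrez 19167) had 5419, 5699.5 and 5474 with LPS, 4483, 3932 and 4906 with DHA, and 4612, 4899 and 3390.0 with cpdA, so that no pretreated library reached LPS. Its log2 change was -0.32 with DHA (SE 0.15; limma adjusted p = 0.368) and -0.38 with cpdA (SE 0.15; limma adjusted p = 0.295). Psma4 (Entrez 26441) had 4559, 4904 and 4631 with LPS, 4231, 3615 and 4270.1 with DHA, and 4094, 4348 and 3059.5 with cpdA. Its groups did not overlap either, and its log2 changes were -0.22 and -0.31 (SE 0.14 each; limma adjusted p = 0.491 and 0.353). Psma5 had the most negative alpha ring change with cpdA over all 9 libraries, -0.41, but -0.16 without cpdA 3 and LPS 3, where Psma3 was lower at -0.23. Psma1 had the highest alpha ring change with DHA, 0.03, and Psma7 with cpdA, 0.02. The 4 non-catalytic beta subunits all had negative changes, from -0.10 (Psmb4) to -0.08 (Psmb3) with DHA and from -0.19 (Psmb2) to -0.01 (Psmb3) with cpdA, and none passed. With cpdA this direction rested on cpdA 3, where their median against the LPS mean was -0.45. That median was 0.06 in cpdA 1 and -0.02 in cpdA 2.

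The 19S regulator was close to its LPS level. Its 6 ATPases, which thread the unfolded substrate into the core, had a median change of 0.03 with DHA and -0.01 with cpdA, from -0.04 (Psmc5) to 0.11 (Psmc1) and from -0.08 (Psmc5) to 0.14 (Psmc1). Its 11 non-ATPases had medians of -0.04 and -0.05. Psmd1 (Entrez 70247), the large scaffold subunit of the base, had the largest positive change of all members, with 5045, 5197 and 3787 for LPS, 5698, 4961.5 and 5924 for DHA, and 5855, 5902 and 4977 for cpdA. LPS 3 was the lowest Psmd1 library and the groups overlapped, and the log2 changes were 0.25 and 0.26 (SE 0.15 each; limma adjusted p = 0.451 and 0.429). Psmc1 (Entrez 19179) had 2675, 2738 and 2400.5 with LPS, 3092, 2586 and 2764 with DHA, and 3014, 2903 and 2692 with cpdA, also overlapping. Psmd14 (Entrez 59029), the enzyme that removes ubiquitin chains from substrates at the lid, had 2663, 2752 and 2384 with LPS, 2815.5, 2519 and 2810.0 with DHA, and 2742.5, 2869.8 and 2202 with cpdA. Its log2 change was 0.06 with DHA (SE 0.12; limma adjusted p = 0.836) and -0.00 with cpdA (SE 0.12; limma adjusted p = 0.992). Nfe2l1 (Entrez 18023) had 12555.5, 11854 and 9372 with LPS, 13315, 10589 and 11619.6 with DHA, and 13322, 12871 and 9011 with cpdA, with overlapping groups and log2 changes of 0.08 and 0.05 (SE 0.19 each; limma adjusted p = 0.877 and 0.930).

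Over all 9 libraries limma called 0 of the 39 members with DHA, where it called 0.0072% of all genes (1 gene, Cpt1a). With cpdA it also called 0 members, again against 0.0072%, and with the replicate number as a block it called 0 members and 0 genes in both. At an unadjusted p under 0.05 there were 2 members with DHA (Psmb10 and Psme1), against 14.2% of all genes, and 3 with cpdA (Psmb10, Psme1 and Psma3), against 14.6%. The edgeR quasi-likelihood test and DESeq2, both on recovered reads, called no member either, while edgeR called 0.0216% and 0.0072% of genes and DESeq2 2.31% and 3.26% with DHA and cpdA. Every DHA library was below every LPS library for 8 members (Psmb8, Psmb9, Psmb10, Psme1, Psme4, Psma3, Psma4 and Psmd12), against 15% of all genes. For cpdA this held for 6 members (Psmb8, Psmb9, Psmb10, Psme1, Psma3 and Psma4), against 12.2%. Those shares are near the background, so the counts are not a result about proteasome genes as a whole. No member was above LPS in every library of a treatment, against 13% of all genes with DHA and 10.7% with cpdA. The median change over the 39 members was -0.055 with DHA and -0.08 with cpdA (-0.11 and -0.00059 without cpdA 3 and LPS 3). Over all genes and all 9 libraries it was -0.00067 and -0.0043. Over the 3 immune subunits it was -0.51 and -0.68, the latter moving to -0.24 without cpdA 3 and LPS 3, and both comparisons rest on the same LPS libraries.

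**Figure D4:**
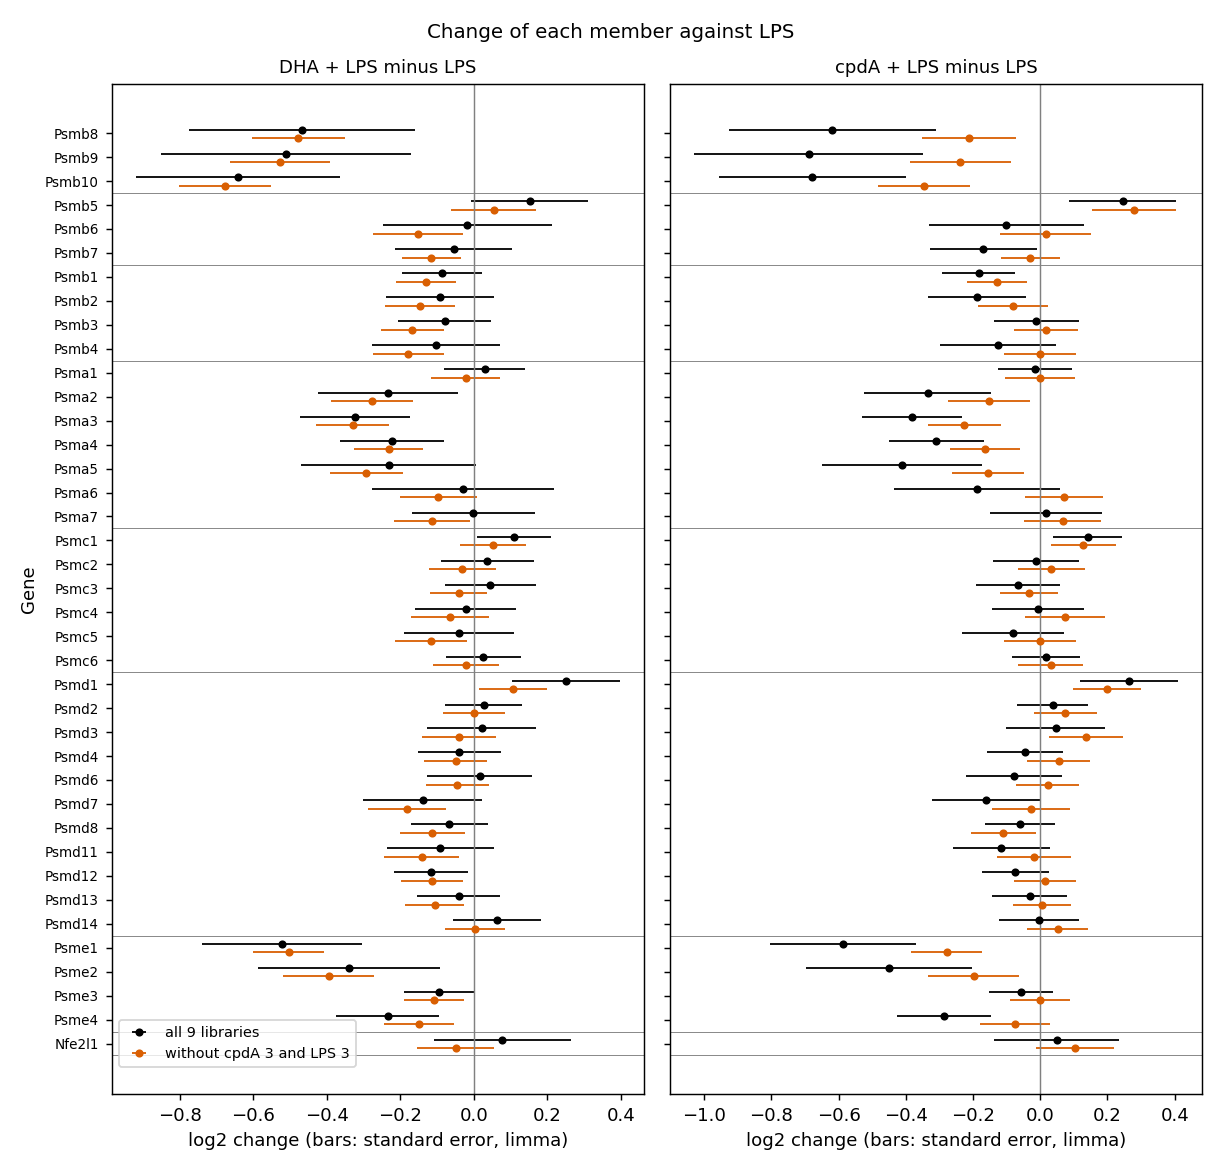
Log2 change against LPS (x axis; point) with its limma standard error (bar) for each of the 39 members (y axis), with DHA on the left and cpdA on the right, over all 9 libraries (black) and without cpdA 3 and LPS 3 (orange). With DHA the changes of Psmb8, Psmb9, Psmb10 and Psme1 keep their size and their errors shrink, and with cpdA the same changes move toward 0, for Psmb9 from -0.69 to -0.24.

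Much of the cpdA change came from cpdA 3. Its normalized read count over the mean of cpdA 1 and cpdA 2 was 0.378 for Psmb9, 0.422 for Psmb8, 0.466 for Psmb10, 0.527 for Psme2 and 0.548 for Psme1. These were low among the members, since Psmd8 stood at 1.00 and Psmc1 at 0.910 by the same measure, although Psma6 at 0.506 and Psma5 at 0.517 were as low as Psme2. The cpdA changes without cpdA 3 and LPS 3 were -0.21 for Psmb8, -0.24 for Psmb9, -0.35 for Psmb10, -0.28 for Psme1 and -0.20 for Psme2, with limma adjusted p from 0.312 (Psme1) to 0.669 (Psme2). Limma called 0 members in that comparison against 1.6% of all genes.

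The DHA changes do not involve cpdA 3 except through the shared spread, and they hardly moved. Without cpdA 3 and LPS 3, the log2 change was -0.48 for Psmb8 (SE 0.13; limma adjusted p = 0.0466), -0.53 for Psmb9 (SE 0.14; limma adjusted p = 0.0451), -0.68 for Psmb10 (SE 0.13; limma adjusted p = 0.00999) and -0.50 for Psme1 (SE 0.10; limma adjusted p = 0.0119). These 4 of 39 members fell, against 6.79% of all genes called and 4.04% called lower. Psme2 was next, at -0.39 (SE 0.12; limma adjusted p = 0.0784). The calls depend on single libraries among the 7 that remain. Leaving out in addition LPS 1, LPS 2 or DHA 3 left 0 members called (with 0.533%, 0.662% and 2.36% of genes called), leaving out DHA 2, cpdA 1 or cpdA 2 left 2 (6.12%, 4.45% and 4.51%), and leaving out DHA 1 gave 12 (23.1%). With cpdA 3 alone left out, 2 members fell with DHA, Psmb10 (limma adjusted p = 0.0371) and Psme1 (limma adjusted p = 0.0327), against 2.68% of genes called.

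Between cpdA and DHA, given at doses of 10 and 100 µM, limma called 0 members and 0% of genes, with 0 members at an unadjusted p under 0.05 against 1.02% of genes. Changes of cpdA minus DHA ranged from -0.18 (Psma5) to 0.09 (Psmb5), with a median of -0.04. Those of Psmb8, Psmb9, Psmb10, Psme1 and Psme2 were -0.15, -0.18, -0.04, -0.06 and -0.11 (limma adjusted p = 1.00 for each). Without cpdA 3 and LPS 3 all 5 were positive instead, at 0.27, 0.29, 0.33, 0.22 and 0.20 (limma adjusted p = 0.754 for each). No member separated the 2 groups, against 2.61% of genes with cpdA below DHA and 3.04% above.

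Other genes of the pathway came from fixed lists. Of 16 assembly and accessory genes tested, 10 had negative changes in each comparison and none passed. Pomp, the chaperone that matures new cores, had 4145.5 ± 577 with LPS, 3837 ± 176 with DHA and 3607 ± 853 with cpdA (SD, n = 3). Of 17 genes of Nfe2l1 processing and ubiquitin supply, 13 had positive changes in each comparison (medians 0.13 and 0.11) and none passed over all 9 libraries. Without cpdA 3 and LPS 3, Ubqln2, which shuttles ubiquitin conjugates to the proteasome, and Zfand2a, a proteasome-associated zinc finger protein, rose with DHA by 0.48 and 0.34 (limma adjusted p = 0.0106 and 0.0316). DESeq2 over all 9 libraries called Ubqln2 with cpdA (0.52, adjusted p = 0.0371).

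The 12 genes of MHC class I peptide loading, which receive the products of the immunoproteasome, had medians of -0.32 with DHA and -0.42 with cpdA, 9 of 12 being negative in each, and none passed over all 9 libraries. The cpdA median came mostly from cpdA 3. By library, the median of the 12 against the LPS mean was -0.09 in cpdA 1, -0.14 in cpdA 2 and -0.83 in cpdA 3. It was -0.13, -0.49 and -0.28 in DHA 1, DHA 2 and DHA 3. Tap1, the transporter subunit, had 21524, 20288 and 23068 with LPS, 19679, 13034 and 15041 with DHA, and 19210.2, 18305 and 6751 with cpdA. As with Psmb9, every pretreated library was below LPS. Its log2 changes were -0.46 and -0.69 (SE 0.36 each; limma adjusted p = 0.579 and 0.407), and without cpdA 3 and LPS 3 the cpdA change was -0.16 (limma adjusted p = 0.801). Nlrc5, the transactivator of class I genes, had 12494 ± 1433, 8239.7 ± 1397 and 8135 ± 3193 (SD, n = 3), with changes of -0.61 and -0.71 (SE 0.30 each; limma adjusted p = 0.388 and 0.324), the latter -0.23 without cpdA 3 and LPS 3 (limma adjusted p = 0.591). Without cpdA 3 and LPS 3, Nlrc5 and Tapbpl, a peptide editor, fell with DHA by 0.52 and 0.53 (limma adjusted p = 0.0306 and 0.0228), while the lectin chaperone Calr and its partner Pdia3 rose by 0.43 and 0.41 (limma adjusted p = 0.0257 and 0.0203). DESeq2 over all 9 libraries called Calr and Pdia3 with cpdA (0.66 and 0.52, adjusted p = 0.00317 and 0.00444).

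Of 10 interferon regulators, 8 had negative changes with DHA and 9 with cpdA, with medians of -0.36 and -0.34. By library, the median of the 10 against the LPS mean was -0.21 in cpdA 1, -0.12 in cpdA 2 and -0.62 in cpdA 3. It was -0.17, -0.46 and -0.33 in DHA 1, DHA 2 and DHA 3. Irf1, a factor that drives immunoproteasome genes, had 20739.7, 21171 and 23359.9 with LPS, 19713, 14324 and 16498 with DHA, and 18965, 20002 and 13010 with cpdA. Its pretreated libraries were all below LPS, with changes of -0.38 and -0.35 (SE 0.19 each; limma adjusted p = 0.399 and 0.423), the latter -0.11 without cpdA 3 and LPS 3 (limma adjusted p = 0.854). None of the 10 passed over all 9 libraries, and Irf8 fell with DHA by 0.42 without cpdA 3 and LPS 3 (limma adjusted p = 0.0311). Like the member calls, the calls of Ubqln2, Zfand2a, Nlrc5, Tapbpl, Calr, Pdia3 and Irf8 in that smaller set were each lost when LPS 1, LPS 2 or DHA 3 was also left out, and Nlrc5, Tapbpl and Calr also without cpdA 1, with Nlrc5 and Calr also without cpdA 2.

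Cells of other types in a peritoneal sample can also carry immunoproteasome genes, and in bulk RNA fewer such cells and less RNA per cell cannot be told apart. The 5 B cell markers, led by Ms4a1, summed to 254 to 311 normalized counts with LPS, 183 to 229.5 with DHA and 232 to 320.4 with cpdA. The 4 dendritic cell markers found of 5, led by Zbtb46, summed to 189 to 222 with LPS, 142 to 161 with DHA and 139 to 174 with cpdA, and Cd209a was at 0 in 2 libraries. The 3 mast cell and eosinophil markers found of 6, led by Kit, summed to 179 to 201 with LPS, 112 to 129 with DHA and 127 to 262 with cpdA. All 3 sums moved with Psmb8, Psmb9, Psmb10 and Psme1 in the DHA comparison, as did the dendritic cell sum in the cpdA comparison, and their part in the result was not tested. Single markers did not all follow their sums. Xcr1 was lower in every pretreated library, but Zbtb46 was 79.3 to 87.0 with LPS and 85.3 to 87.8 with cpdA. Kit was 19.4 in LPS 3, below every DHA library. Cpa3 and Tpsb2 were highest in LPS 3 (82.9 and 84.9) and cpdA 3 (89.6 and 139.4), against 19.7 to 40.3 elsewhere. The 3 T and NK cell markers found of 7 summed to 35.7 to 50.8 over all libraries, with Cd2 at 0 in 1 library, and the 4 neutrophil markers found of 7 summed to 91.4 in cpdA 3, 129.9 in LPS 3 and 362 to 526 elsewhere. The 8 mesothelial, fibroblast and endothelial markers, led by Col1a1, summed to 17614 in LPS 3 and 11092 to 13166 elsewhere.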

How the data were processed

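The deposited table gives for each gene and library a signal, which the authors obtained from read counts scaled by 1 size factor a library, as its values show (a normalized count). The submitters' processing notes name CASAVA 1.8.2, Bowtie2, DESeq and the build mm9. No source used here gives the counting program, the annotation or the use of strand. The labels' growth and extraction protocols were not used, since they concern neural stem cells and histone-bound DNA, and the strain reads CF7B1/6. Groups came from the titles.

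Whole reads were recovered for 99.8% to 99.98% of values per library (tolerance 0.05). Genes with at least 10 normalized counts in at least 3 libraries were tested with limma 3.58.1 in R 4.3.3 on log2(value + 1), using all 9 libraries together and the trend and robust options, and called at a Benjamini-Hochberg adjusted p under 0.05 over all 13895 genes. Ratios within libraries were compared by exact permutation tests (scipy 1.17.1). All members were accounted for, with values per library for catalytic subunits, activators, Nfe2l1, Psmd14, called members and the 3 most positive and most negative changes in each comparison with LPS, and other pathway genes only where called or among Tap1, Irf1, Nlrc5 and Pomp, and 1 further gene of that rule is not reported here. Psma3 and Psma4 were named in full after their values were seen. The members and lists were chosen with earlier results of these data known. 1 of 56 listed pathway genes, Paaf1, was not found.

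Alternatives were pseudocounts of 0.5 and 8, no filter, a mean of at least 50, quantile, TMM and median-of-ratios scaling, limma lacking the trend and robust options, only the libraries compared, a replicate block, edgeR 4.0.16 and DESeq2 1.42.0 on recovered reads, each library left out, and cpdA 3 and LPS 3 left out. The libraries cpdA 3 and LPS 3 were singled out because they stood apart in these same data. Standard errors and adjusted p-values without them can therefore be too small. Leaving out a further library beside those was also chosen after seeing the data. The limma and edgeR fits were tested on simulated counts with the same dispersion in all libraries, so that check does not cover libraries that stand apart. Deviations of same-numbered LPS and cpdA libraries correlated at 0.387, 0.234 and 0.437, over 0.1 in every pair, unlike in the other comparisons. Some pairs of unlike number were above the lowest of these (0.234), with 0.292 for LPS 2 and cpdA 1 and 0.265 for LPS 1 and cpdA 2. The other LPS and cpdA pairs of unlike number were negative, from -0.432 to -0.306. DHA 2 and cpdA 3, also of unlike number, stood at 0.452. The correlations therefore cannot settle whether libraries were paired by number. All values printed are from the fit without the block unless the block is named. Lengths are of the longest RefSeq-matched coding transcript in GENCODE M21, and the promoter table is of GRCm38.p6, another build than the authors' one, so no other coordinates are given. Exons of Psmb8, Psmb9, Psme1, Psma4, Psma5, Psmb5, Psmb7, Psmc3, Psmd1, Psmd3 and Psmd13 overlap those of another gene there.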

Additional observations from a re-analysis of the deposited data

How the results depend on the processing

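Over 22 settings (9 of them leaving out 1 library), 1236 of 1298 values of members and other named genes kept direction and side of the threshold, 21 gained a call and 41 reversed, none of the reversed values being called. All 220 values of Psmb8, Psmb9, Psmb10, Psme1 and Psme2 against LPS were negative, and 6 were called. The settings reuse the same 9 libraries, so the 220 are not independent. For all of these but Psme2, every pretreated library was below every LPS library, so leaving libraries out could not reverse the sign. The 6 calls were with DHA, 4 without cpdA 3 and LPS 3 (6.79% of all genes called) and 2 without cpdA 3 alone (2.68%). Genes called with DHA (1 over all 9 libraries) numbered 3 with a mean filter of 50, TMM or edgeR, 9 with only the libraries compared, 0 without trend and robust options or with the replicate block, 315 with DESeq2, 943 without cpdA 3 and LPS 3, and 0 to 373 with 1 library left out. Members called with DHA numbered 4 without cpdA 3 and LPS 3, 12, 2, 2 and 2 with DHA 1, DHA 2, cpdA 1 or cpdA 2 also left out, and 0 to 2 with 1 library left out. Genes called with cpdA (1) numbered 0 without trend and robust options, with only the libraries compared or with the block, 391 with DESeq2, 222 without cpdA 3 and LPS 3 and 0 to 3 with 1 library left out. The replicate block changed no member's call. The ratios were not tested in paired form. The immune over constitutive ratio ranged with 1 library left out from -0.62 to -0.49 with DHA, from -0.77 to -0.43 with cpdA (-0.35 without cpdA 3 and LPS 3) and from -0.21 to 0.14 for cpdA minus DHA, where without cpdA 3 and LPS 3 it was 0.14 (exact permutation p = 0.2). Quantile scaling reversed the DHA change of Psmb6 (0.14) and Psmb7 (0.0030) and the cpdA change of Psmb6 (0.096), Psme3 (0.033) and Psmd14 (0.076). Psmd14 with cpdA was also 0.0037 with TMM, 0.0096 with edgeR and 0.0058 with DESeq2. Without cpdA 3 and LPS 3, Nfe2l1 with DHA was -0.049, Psmb6 and Psmd14 with cpdA 0.017 and 0.052, and cpdA minus DHA was 0.27 for Psmb8, 0.29 for Psmb9, 0.33 for Psmb10, 0.22 for Psme1 and 0.20 for Psme2, while edgeR and DESeq2 gave 0.030 for Psmb10. With 1 library left out, DHA changes ran from -0.15 to 0.076 for Psmb6 and -0.049 to 0.16 for Nfe2l1. The cpdA changes ran from -0.25 to 0.15 for Psmb6, -0.27 to 0.031 for Psmb7, -0.093 to 0.013 for Psme3, -0.078 to 0.23 for Nfe2l1 and -0.078 to 0.11 for Psmd14. Those of cpdA minus DHA ran from -0.37 to 0.27 for Psmb8, -0.43 to 0.29 for Psmb9, -0.24 to 0.33 for Psmb10, -0.22 to 0.22 for Psme1 and -0.29 to 0.20 for Psme2. The cause was not tested. Every member had at least 732 reads in every library.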
